A study of Mus musculus with 6 samples.

Results

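The genes described here are Cecr2 and 7 of the genes whose proteins work with it or beside it in ISWI chromatin remodelling: the ATPases Smarca1 and Smarca5 and the non-catalytic subunits Bptf, Baz1a, Baz1b, Baz2a and Rsf1. They are 8 of the 19661 genes measured on 6 arrays. Cecr2 was chosen on its low level in Fog1ki/ki in these same arrays, so its difference between genotypes is given as a description, with no test. The 7 partners were taken for their roles in ISWI complexes, and each was tested with the other genes. These partners, and the gene lists further below, were chosen with earlier results of these data known. Their p-values are therefore not those of a set picked blind. Where a gene had several probe sets, the brightest on average over the 6 arrays stood for it, which applied to Bptf alone among the 8.

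RNA came from megakaryocyte-erythroid progenitors (MEP), the bone marrow precursors of red cells and platelets, from B6.129 mice. The mice carried 2 knock-in copies of Fog1 (Fog1ki/ki, 3 arrays) or intact Fog1 (Fog1+/+, 3 arrays). Neither the age of the mice nor the number pooled per array is stated, so p-values measure the spread between these samples. FOG1, the product of Zfpm1, partners the transcription factor GATA1, and from general knowledge of the study the knock-in protein no longer contacts the NuRD complex, itself a nucleosome remodeller and histone deacetylase. Cells had been sorted as negative for lineage markers, Sca1 and CD34, positive for Kit and low for FcγRII/III.

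ISWI enzymes use the energy of ATP to slide nucleosomes and to space them evenly along DNA. Each complex pairs an ATPase, SMARCA1 (SNF2L) or SMARCA5 (SNF2H), with a large subunit that sets where it acts, often through a bromodomain that binds acetylated histones or a PHD finger that reads histone tails. CECR2, BPTF and the BAZ proteins carry a bromodomain, while RSF1 carries a PHD finger. CECR2 forms the CERF complex with an ISWI ATPase, and mice that lack it fail to close the neural tube. In mice SMARCA5 is needed for blood progenitors and red cell formation, and BPTF for blood stem cell maintenance.

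Cecr2 was 3.38-fold lower in Fog1ki/ki progenitors than in Fog1+/+ progenitors. It measured 5.84, 5.82 and 5.67 on the log2 scale in Fog1ki/ki replicates 1, 2 and 3, against 7.09, 7.76 and 7.75 in the Fog1+/+ replicates. The genotypes did not overlap, and a gap of 1.25 separated the highest Fog1ki/ki array from the lowest Fog1+/+ array. The means were 5.78 ± 0.09 and 7.53 ± 0.38 (SD, n = 3 each), a log2 difference of -1.76 (SE 0.17). The Fog1ki/ki arrays lay close together, within 0.17, whereas Fog1+/+ replicate 1 lay well below the other 2 Fog1+/+ arrays and widened that group's range to 0.67. The Fog1ki/ki mean lay between the lower quartiles (5.01 to 5.12) and the medians (6.16 to 6.31) of the arrays over all tested genes, and the Fog1+/+ mean lay between the medians and the upper quartiles (7.82 to 7.93). Of all 19661 genes, Cecr2 had the 7th most negative log2 difference.

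Genes were called at an adjusted p under 0.05 in limma, and 152 of 19661 genes (0.773%) passed, 74 higher and 78 lower (0.397% lower). After subtraction of each array's median 116 passed, 43 higher and 73 lower. Cecr2 is 1 of those 78 genes, which is what it was selected on, so nothing is read from its place among them. Its log2 difference ran from -1.98 without Fog1+/+ replicate 1 to -1.60 without both arrays that had low Y-linked values (replicate 3 of each genotype). In bulk RNA, fewer cells that express Cecr2 and less Cecr2 RNA per cell cannot be told apart.

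**Figure D1:**
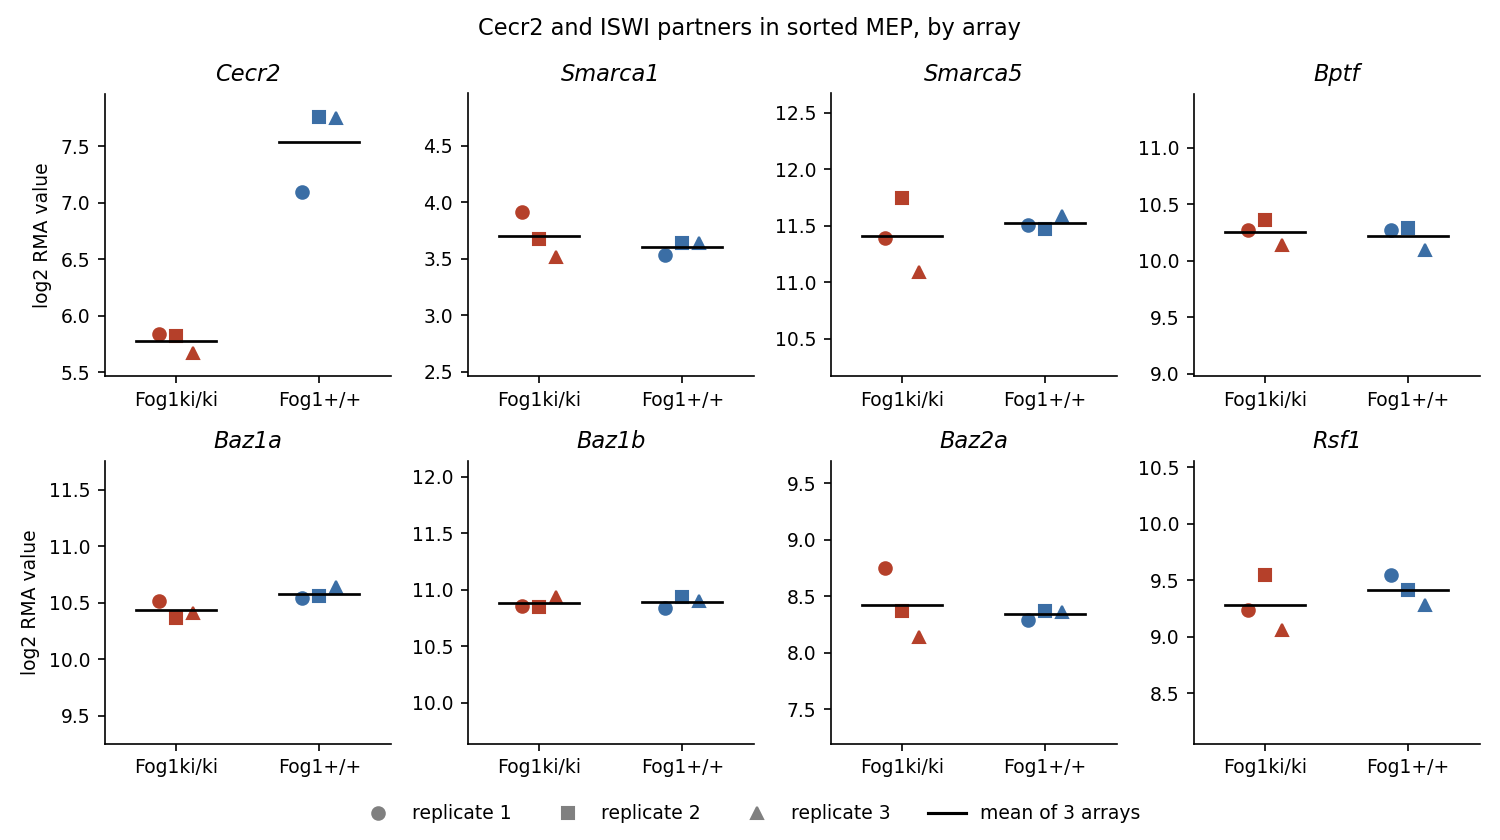
Log2 RMA value (vertical axis, each panel spanning 2.5 log2 units) of Cecr2 and its 7 partners in the 3 Fog1ki/ki arrays (left, red) and the 3 Fog1+/+ arrays (right, blue); each symbol is 1 array, marked by replicate number, and each line is the mean of 3. The genotypes stand apart in Cecr2, at most 5.84 in Fog1ki/ki against at least 7.09 in Fog1+/+, while the partners lie at like levels in both.

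Neither ATPase gene passed the test. Smarca5, the ISWI ATPase of most blood cells, measured 11.39, 11.75 and 11.09 in Fog1ki/ki, against 11.51, 11.47 and 11.59 in Fog1+/+. The Fog1ki/ki arrays lay on both sides of the Fog1+/+ arrays, and the log2 difference was -0.11 (SE 0.15, limma adjusted p = 0.88). Its 95% interval ran from -0.46 to 0.24, that is from 0.726 to 1.18 times the Fog1+/+ level. Smarca1, the paralogue best known from neurons, measured 3.91, 3.67 and 3.51 in Fog1ki/ki, against 3.53, 3.64 and 3.64 in Fog1+/+. All 6 values lay below the lower quartile of their arrays, and the groups overlapped (log2 difference 0.09, SE 0.12, limma adjusted p = 0.866, 95% interval -0.17 to 0.36). No test of signal over background was used, so a change of Smarca1 at so dim a probe set could be understated.

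The start regions of the 2 ATPase genes also differ in base composition, and both are printed to show it. Each line gives RefSeq's 300 bases on GRCm38.p6, from 250 before to 50 after the gene's start, on the gene's strand, with CG dinucleotides in capitals.
Smarca5, chr8:80739410-80739709, minus strand: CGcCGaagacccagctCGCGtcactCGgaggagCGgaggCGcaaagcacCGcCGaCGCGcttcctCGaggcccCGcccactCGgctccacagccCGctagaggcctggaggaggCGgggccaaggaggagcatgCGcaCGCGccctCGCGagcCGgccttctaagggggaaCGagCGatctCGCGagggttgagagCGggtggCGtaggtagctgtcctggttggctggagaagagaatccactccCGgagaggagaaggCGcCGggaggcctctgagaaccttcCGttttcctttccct
Smarca1, chrX:47892564-47892863, minus strand: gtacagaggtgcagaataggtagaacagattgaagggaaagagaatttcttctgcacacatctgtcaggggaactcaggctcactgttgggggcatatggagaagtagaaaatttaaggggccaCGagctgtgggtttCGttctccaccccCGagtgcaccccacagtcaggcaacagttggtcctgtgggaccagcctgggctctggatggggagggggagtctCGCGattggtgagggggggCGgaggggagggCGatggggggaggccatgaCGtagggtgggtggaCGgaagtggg
Smarca5 has 32 CG dinucleotides in this window and Smarca1 has 9, where the median of the 32851 start regions in the table is 7. Among the other members found there, Bptf has 39, Baz2a 30 and Baz1b 27, counts that 3.91%, 10.6% and 14.2% of all start regions exceed. Of the 5 members found, 4 lie above the upper quartile of 20, and Smarca1 lies between the median and that quartile. Cecr2, Baz1a and Rsf1 are not among the 5. Any link between these counts and the level of expression was not tested. The letters GATAA, the core of a GATA factor motif, occur on either strand in 0 of these 5 windows and in 25.4% of all windows in the table, which says only that these letters are not in these 300 bases.

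The subunits of the NURF and ACF complexes did not pass either. Bptf, the largest subunit of NURF and a reader of methylated and acetylated histones, measured 10.27, 10.36 and 10.14 in Fog1ki/ki, against 10.27, 10.29 and 10.10 in Fog1+/+. Its arrays overlapped almost fully (log2 difference 0.04, SE 0.10, limma adjusted p = 0.95, 95% interval -0.19 to 0.27). Its dimmer probe set gave -0.05 (SE 0.11, limma adjusted p = 0.941 over all probe sets), so the 2 probe sets differed in sign and neither passed. Baz1a, which with SMARCA5 forms the nucleosome-spacing complex ACF, measured 10.52, 10.37 and 10.41 in Fog1ki/ki, against 10.54, 10.56 and 10.64 in Fog1+/+. Baz1a was the 1 partner whose genotypes did not overlap, by a gap of only 0.02, and 14.8% of all genes did not overlap. Its log2 difference was -0.15 (SE 0.09, limma adjusted p = 0.676, 95% interval -0.35 to 0.06).

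Baz1b, Baz2a and Rsf1 complete the set. Baz1b, or WSTF, the SMARCA5 partner in the WICH complex, had the narrowest interval, at -0.01 on the log2 scale (SE 0.09, limma adjusted p = 0.986, 95% interval -0.21 to 0.19). Its arrays read 10.86, 10.85 and 10.94 in Fog1ki/ki and 10.84, 10.94 and 10.90 in Fog1+/+. Baz2a, or TIP5, which brings SMARCA5 to silent ribosomal DNA in the NoRC complex, measured 8.75, 8.37 and 8.14 in Fog1ki/ki, against 8.29, 8.37 and 8.36 in Fog1+/+. The Fog1ki/ki arrays spread by 0.61 around Fog1+/+ arrays that lay within 0.08 of each other (log2 difference 0.08, SE 0.15, limma adjusted p = 0.916, 95% interval -0.25 to 0.41). Rsf1, the subunit of the remodelling and spacing factor RSF, measured 9.24, 9.55 and 9.06 in Fog1ki/ki, against 9.55, 9.41 and 9.28 in Fog1+/+. These overlapped as well (log2 difference -0.13, SE 0.14, limma adjusted p = 0.836, 95% interval -0.44 to 0.18).

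Of the 7 partners, 0 passed limma's test at the adjusted threshold, beside 0.773% of all genes. At an unadjusted p below 0.05, 0 partners passed. The share of all genes at that unadjusted level was not counted, so unadjusted counts here and below stand without a background. The partners' log2 differences lay between -0.15 and 0.09, 3 above 0 and 4 below, with a median of -0.01 beside 0.02 over all genes. The 95% intervals of the 7 together ran from -0.46 to 0.41. Cecr2's difference of -1.76 lies outside them, but Cecr2 was chosen on that difference, so this is not a result. A p that misses the threshold does not show that a partner did not differ, and a change of any size within its interval remains possible. The intervals are not limits of detection, since a larger difference can also miss the threshold. Plek, a megakaryocyte marker, had a log2 difference of 0.83 and did not pass (limma adjusted p = 0.0911). Under another scaling, differences this close to 0 can change sign. Centring shifts all genes together, and Bptf then stood at -0.02, where the median of all genes was -0.03. Repeated quantile normalization does not move all genes alike. With it Baz1b went from -0.01 to 0.08, while Smarca1 went from 0.09 to 0.05.

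**Figure D2:**
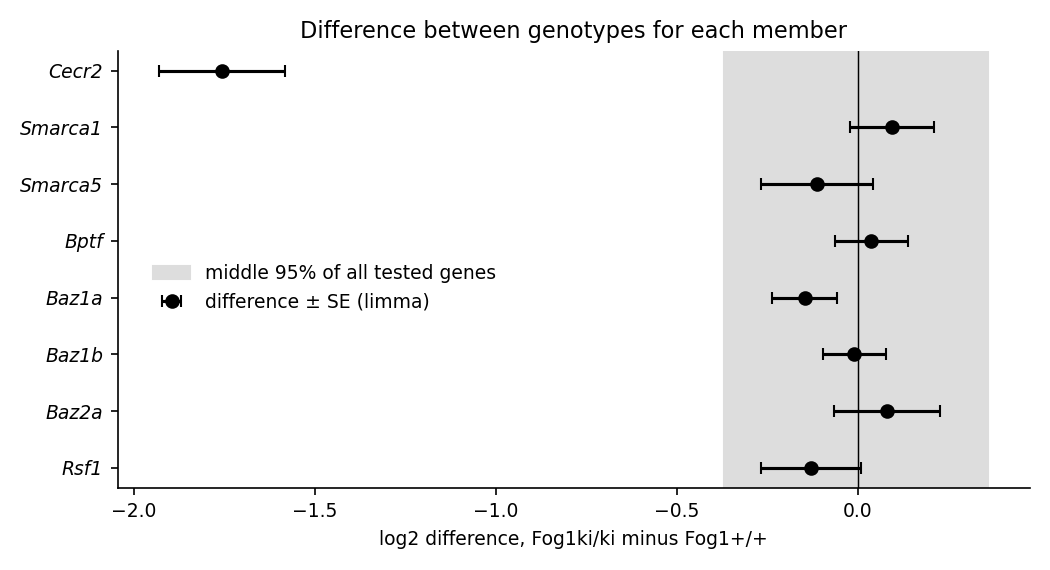
Log2 difference between Fog1ki/ki and Fog1+/+ (horizontal axis) for each of the 8 genes, with bars of 1 SE from limma and the middle 95% of all 19661 genes (-0.37 to 0.36) shaded. The 7 partners lie inside the shaded range. Cecr2, at -1.76, lies outside it, but it was chosen on that difference.

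The SD among arrays was larger in Fog1ki/ki than in Fog1+/+ for 6 of 7 partners, beside 64.7% of all genes, and it was smaller for Cecr2. These counts were not tested. For Smarca5 it was 0.33 in Fog1ki/ki and 0.06 in Fog1+/+, and for Baz2a 0.31 in Fog1ki/ki and 0.04 in Fog1+/+, while for Bptf it was 0.11 in Fog1ki/ki and 0.10 in Fog1+/+. Fog1ki/ki replicate 3 was the lowest Fog1ki/ki array in 6 of the 8 genes (Cecr2, Smarca1, Smarca5, Bptf, Baz2a and Rsf1), against 27.1% of all genes, a count that was not tested. That array and Fog1+/+ replicate 3 had low Y-linked values, a mean of 4.14 and 4.16 over Eif2s3y, Uty and Kdm5d, against at least 8.79 in the other arrays. Without both, the log2 difference was 0.08 for Smarca5, 0.21 for Smarca1 and 0.23 for Baz2a, and no partner passed.

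The genes beside Cecr2 on chromosome 6 showed no difference near the size of its own. Of the 10 tested genes on either side, 0 passed limma's test, with 1 at an unadjusted p below 0.05, and the median log2 difference of these 20 genes was -0.04. The nearest on one side were Hdhd5, a haloacid dehalogenase-like hydrolase gene (6.74, 6.71 and 6.82 in Fog1ki/ki, against 6.68, 6.69 and 6.63 in Fog1+/+), and Tmem121b (log2 difference 0.03). On the other side lay Slc25a18, a mitochondrial glutamate carrier gene (6.58, 6.33 and 6.44 in Fog1ki/ki, against 6.31, 6.36 and 6.43 in Fog1+/+), and then Atp6v1e1. Atp6v1e1, a subunit of the vacuolar proton pump, measured 9.22, 9.08 and 9.22 in Fog1ki/ki and 9.48, 9.66 and 9.63 in Fog1+/+. Its log2 difference of -0.42, the most negative of the 20, did not pass (SE 0.10, limma adjusted p = 0.13). The genotypes did not overlap in 2 of the 20, Atp6v1e1 (lower in Fog1ki/ki) and Hdhd5 (higher), beside 14.8% of all genes. The same windows around the other 7 members also held 0 genes past the threshold. Smarca5 lies on chromosome 8, which also carries Zfpm1.

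**Figure D3:**
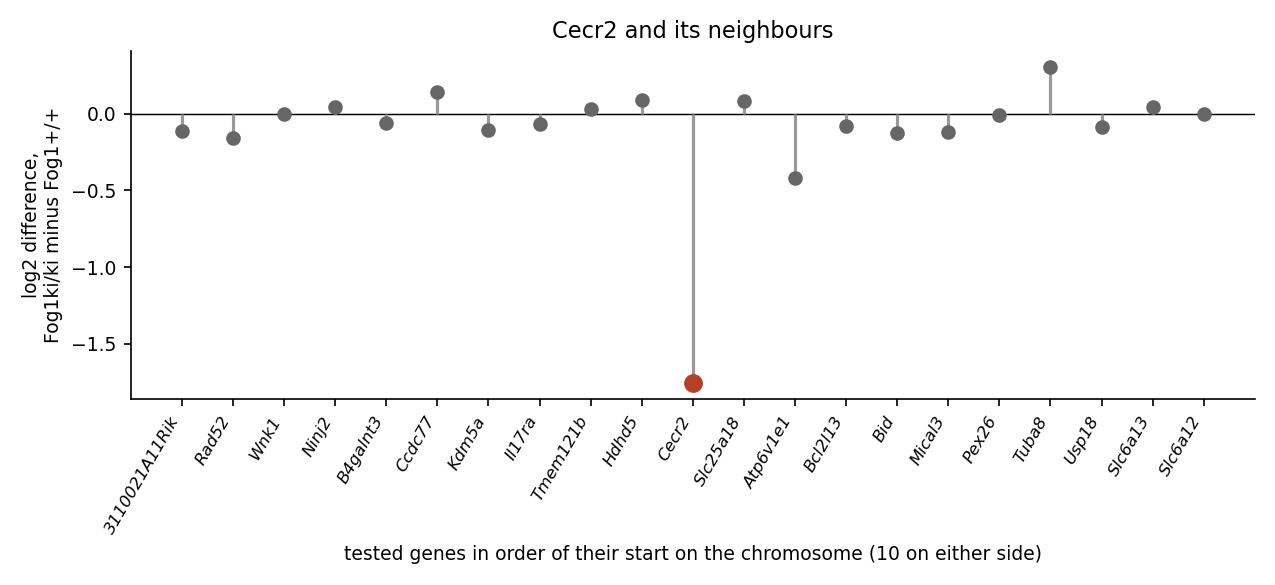
Log2 difference between Fog1ki/ki and Fog1+/+ (vertical axis) for Cecr2 (red) and the 10 tested genes on either side of it, in order of gene start. Cecr2 stands at -1.76, and the neighbours lie between -0.42 (Atp6v1e1) and 0.31 (Tuba8).

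Other subunits and partners of ISWI complexes showed no change past the threshold: of 13, 0 rose and 0 fell in limma (0 higher and 2 lower at an unadjusted p below 0.05), with a median log2 difference of -0.06 beside 0.02 over all genes. Luzp1, a leucine zipper protein reported to join the CERF complex, measured 6.78, 6.78 and 6.68 in Fog1ki/ki, against 6.90, 6.75 and 6.49 in Fog1+/+. The histone-binding subunits Rbbp4 and Rbbp7 had log2 differences of -0.04 (SE 0.10) and -0.11 (SE 0.09). The histone-fold subunits of CHRAC gave -0.32 for Pole3 (SE 0.10, limma adjusted p = 0.296) and -0.06 for Chrac1 (SE 0.13). Pole3 read 10.18, 10.09 and 10.37 in Fog1ki/ki, below 10.50, 10.57 and 10.54 in Fog1+/+, without passing. The list ran from -0.35 for Mybbp1a, a nucleolar protein of the WICH assembly, to 0.19 for Baz2b, a bromodomain relative of Baz2a.

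The wider families of remodellers and bromodomain proteins held 2 genes past the threshold, both higher and both subunits of other complexes. Over 4 lists together (the other ISWI subunits, bromodomain genes, SNF2 family ATPases and histone chaperones), which share some members, 88 genes were measured, of which 2 rose and 0 fell (2.27%, beside 0.773% of all genes). Chd3, a helicase of the NuRD complex, measured 8.46, 8.57 and 8.45 in Fog1ki/ki, against 7.47, 7.56 and 7.26 in Fog1+/+ (log2 difference 1.06, SE 0.10, limma adjusted p = 0.0028). Smarca2, the SWI/SNF ATPase BRM, which also carries a bromodomain, measured 8.78, 8.68 and 8.41 in Fog1ki/ki, against 7.60, 7.94 and 7.59 in Fog1+/+ (log2 difference 0.91, SE 0.14, limma adjusted p = 0.0201). In both genes the genotypes did not overlap, which was so for 14.8% of all genes. The Smarca2 call was lost without Fog1ki/ki replicate 1 or 2 (limma adjusted p = 0.0559 and 0.101), without Fog1+/+ replicate 1 or 3 (0.108 and 0.118) and with centred arrays (0.052). Without both arrays of low Y-linked values, which leaves 2 arrays a genotype, the log2 differences were of like size, 1.0 for Chd3 and 0.96 for Smarca2, but neither passed (limma adjusted p = 0.07 and 0.153).

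By list, 1 of 31 other bromodomain genes rose (Smarca2), 0 fell and 30 did not pass (1 higher and 1 lower at an unadjusted p below 0.05), with values down to -0.29 for Trim24, a nuclear receptor cofactor. Of 29 other ATPases of the SNF2 family, 2 rose, 0 fell and 27 did not pass (2 higher and 4 lower at an unadjusted p below 0.05), from -0.31 for the recombination motor Rad54l upwards, with a median of -0.05. Smarca4, the alternative SWI/SNF ATPase, had a log2 difference of 0.02, and Chd4, the alternative NuRD helicase, one of -0.27 (SE 0.09, limma adjusted p = 0.353). Of 19 histone chaperone genes, 0 rose and 0 fell in limma (0 higher and 1 lower at an unadjusted p below 0.05), with a median of -0.10, from -0.29 for Cabin1 to 0.27 for Nap1l3.

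**Figure D4:**
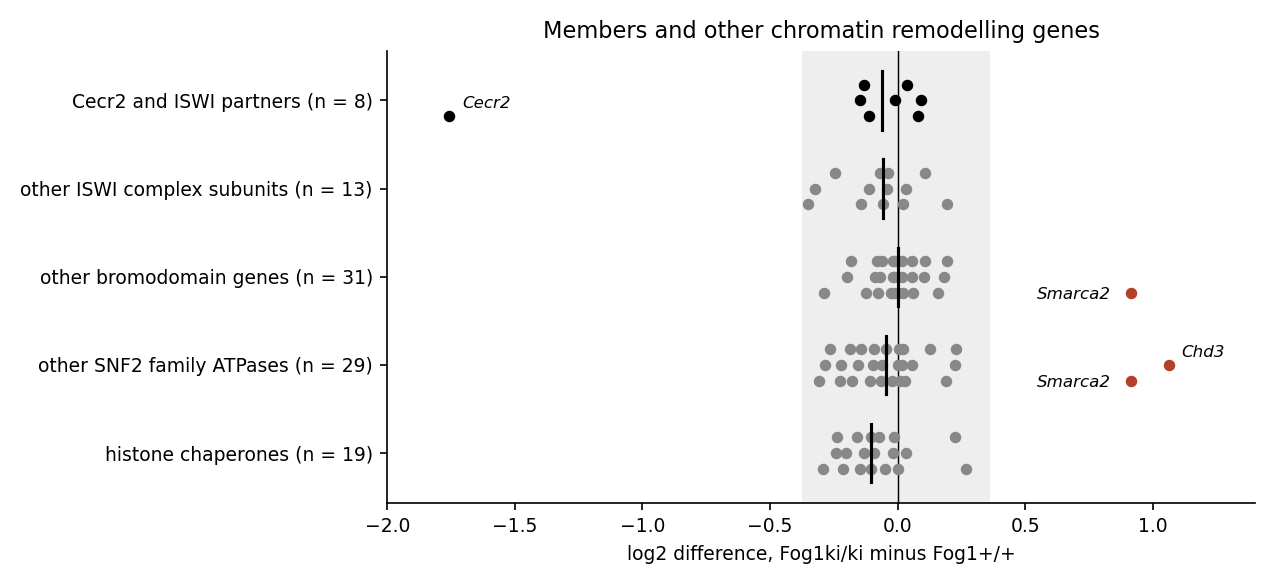
Log2 difference between Fog1ki/ki and Fog1+/+ (horizontal axis) for the 8 genes of the set (black) and the members of 4 other lists, each dot 1 gene, red where it passed limma's test and grey where it did not, with vertical bars at each row's median and the middle 95% of all genes shaded. Chd3 (1.06) and Smarca2 (0.91) lie to the right of the shaded range, and Cecr2 (-1.76), chosen on its difference, to its left.

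By the root mean square difference between profiles centred on their own means over the 6 arrays, the 6 genes most like Cecr2 were Mfhas1 (0.22 log2 units), Prelid2 (0.23), Gsta4 (0.25), Sh2d4a (0.29), Anxa5 (0.33) and Simc1 (0.34). All 6 were lower in Fog1ki/ki, as this measure of likeness to Cecr2 requires. Gsta4, a glutathione transferase, stood at 6.79, 7.16 and 6.96 in Fog1ki/ki and 8.45, 8.43 and 8.83 in Fog1+/+. Simc1, a protein that binds SUMO, read 6.07, 5.86 and 5.66 in Fog1ki/ki, against 7.13, 7.19 and 7.08 in Fog1+/+.

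Cell type markers were read beside these results. The targeted gene, Zfpm1, differed by 0.05 on the log2 scale (SE 0.13, limma adjusted p = 0.948), which does not check the labels, since these do not say what the knock-in alters. Of 11 measured markers of MEP and erythroid cells, 0 passed (1 higher and 1 lower at an unadjusted p below 0.05), and all 11, among them Gata1, Klf1, Epor and Gfi1b, had means above the arrays' lower quartile in both genotypes. Of 4 measured genes of the sorting gate, 0 passed (1 higher, Fcgr2b, and 1 lower, Kit, at an unadjusted p below 0.05, both without overlap of the genotypes, beside 14.8% of all genes without overlap). Kit averaged 9.91 in Fog1ki/ki and 10.29 in Fog1+/+, and Fcgr2b 5.02 in Fog1ki/ki and 4.73 in Fog1+/+, while Cd34 was below the lower quartile at 4.48 in Fog1ki/ki and 4.37 in Fog1+/+. Of 8 megakaryocyte markers 0 passed, with 3 higher (Pf4, Plek and Itga2b) and 0 lower at an unadjusted p below 0.05. With no share of all genes at that level counted, these unadjusted marker counts cannot be judged as many or few. These 8 markers summed on the linear scale to 1152 to 1348 in the Fog1ki/ki arrays and 898 to 994 in the Fog1+/+ arrays. Such sums weigh the brightest probe sets most, in Fog1ki/ki those of Gp5 and Pf4 (means of 8.28 and 7.93). Pf4 had a log2 difference of 0.97 and Plek one of 0.83 (limma adjusted p = 0.266 and 0.0911). Of 11 granulocyte and monocyte markers 0 passed (0 in either direction at an unadjusted p below 0.05).

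Some mast cell markers and 1 B cell marker differed between genotypes. Of 14 mast cell markers 4 rose, 0 fell and 10 did not pass in limma, beside 0.773% of all genes past the threshold. At an unadjusted p below 0.05, for which no share of all genes was counted, 6 were higher and 1 lower (Kit). The 4 were Ms4a2 (log2 difference 3.79), Rgs13 (2.82), Alox5ap (2.62) and Gata2 (1.14). The 14 markers summed on the linear scale to 2421 to 3427 in the Fog1ki/ki arrays and 1774 to 1836 in the Fog1+/+ arrays, and without Kit to 1449 to 2367 in Fog1ki/ki and 548 to 575 in Fog1+/+. Linear sums weigh the brightest probe sets most, so they do not speak for all 14. Apart from Kit the brightest in Fog1ki/ki were Alox5ap, Ms4a2 and Gata2 (means of 9.05, 8.53 and 8.39), all among the 4 that passed. The means of 3 of the 14 (Cpa3, Mcpt4 and Mrgprb2) lay below 5.01, the lowest of the arrays' lower quartiles, in Fog1ki/ki, against 8 in Fog1+/+. Tpsab1 and Cma1 lay at that limit in Fog1ki/ki, with means of 5.01 each, against 4.88 and 4.80 in Fog1+/+. Neither passed. Of 9 B cell markers Blnk rose (means of 5.80 in Fog1ki/ki and 4.80 in Fog1+/+, limma adjusted p = 0.0156), and the sum was 623 to 701 in Fog1ki/ki and 470 to 617 in Fog1+/+. Vpreb1, the brightest of the 9 (means of 8.12 in Fog1ki/ki and 7.64 in Fog1+/+), overlapped between genotypes and did not pass. Whether mast or B cells were present was not tested, nor was any part of such cells in the Cecr2, Chd3 and Smarca2 differences. Without both arrays of low Y-linked values, Ms4a2 and Rgs13 still passed, while Gata2, Alox5ap and Blnk did not (limma adjusted p = 0.217, 0.0582 and 0.163) at log2 differences of 1.20, 2.75 and 1.11. The Gata2 call was also lost without any 1 Fog1+/+ array (0.0875, 0.0629 and 0.0635) or Fog1ki/ki replicate 3 (0.0579), and the Blnk call without Fog1ki/ki replicate 2 (0.0818) or Fog1+/+ replicate 3 (0.0604).

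**Figure D5:**
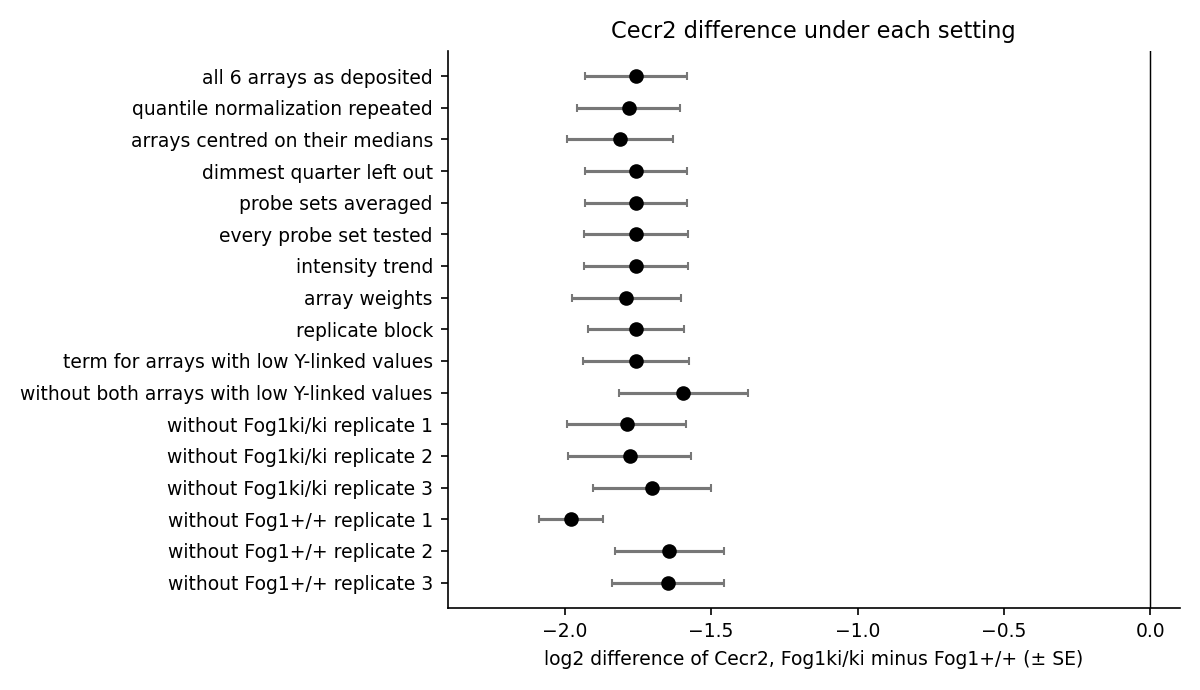
Log2 difference of Cecr2 between Fog1ki/ki and Fog1+/+ (horizontal axis, bars of 1 SE) over all 6 arrays (top) and under 16 alternative settings. Each setting gives a value below 0, from -1.98 to -1.60.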

How the data were processed

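RNA from 6 samples was amplified, labelled with biotin and hybridised to 1-colour arrays, per the labels' protocols. The deposited values lie on a log2 scale, as judged from their range, and the submitters' processing notes name RMA (background correction, quantile normalization, summary over probes). Which software and settings were used is not stated there. RMA compresses differences of dim probe sets, and the number of arrays limits the precision.

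Of 25668 probe sets, 20777 had 1 gene in the platform annotation, 232 several and 4659 none. Those with 1 gene gave 19661 genes, each represented by its brightest probe set. RefSeq tables on GRCm38.p6 gave gene order (19580 genes placed) and start regions, in which 5 of the 8 members were found.

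The comparison of genotypes used limma 3.58.1 (R 4.3.3, genotype as the only term, two-sided, Benjamini-Hochberg over all genes, threshold 0.05), since exact permutation of 3 and 3 arrays reaches no p below 0.1. The fit was tested on simulated data. Named genes were the 8 members, list members past the threshold, the extremes of each list, the 2 nearest neighbours on each side of Cecr2, the 6 profiles nearest to it and Zfpm1, and other genes were named after their values were seen. Members and lists were chosen with earlier results of these data known. Alternatives were other scalings, filters, probe set rules and thresholds, a trend, array weights, blocks and left-out arrays. Tables used Python 3.11.15 and pandas 2.3.3, figures matplotlib 3.10.9.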

Additional observations from a re-analysis of the deposited data

How the results depend on the processing

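The log2 difference of Cecr2, on which it was chosen, is given as a range only: -1.98 to -1.60 under the 16 alternatives and -1.98 to -1.64 without each array in turn. The count of partners past the threshold was 0 under all 18 alternatives, the 2 other thresholds included, as was that of Cecr2's 20 neighbours. The 152 genes past the threshold became 24 without both arrays of low Y-linked values and 55 at an adjusted p under 0.01, and 60 to 134 without 1 array. The stricter threshold lowers the count by construction. Leaving out arrays also leaves fewer per genotype, and how much of those drops that brings was not tested. The members of the 4 wider lists past the threshold, 2 with all arrays, numbered 1 with centred arrays (Chd3), 0 without both arrays of low Y-linked values, 1 at an adjusted p under 0.01 and 1 to 2 without 1 array. Arrays of the same replicate number deviated from their genotype means with correlations across genes of 0.07, -0.01 and 0.13, so the numbers were not taken to pair the arrays. With a replicate block 133 genes passed, the log2 difference of Cecr2 stayed at -1.76, 0 partners and 0 neighbours passed, and the 4 lists held 2. Smarca1 was among the dimmest 25% of genes and has no value with those left out. Scaling moved the median of all genes to 0.0011 with quantile normalization repeated and -0.03 with centred arrays, against 0.02 as deposited. Single arrays were examined by leaving each out and by array weights.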
